A study of Homo sapiens with 14 samples.

Results

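E proteins and their inhibitors were examined in the ChIP-seq table of NF-κB binding in the Hodgkin lymphoma cell line L1236. The set comprises 6 genes, *MSC* (ENSG00000178860), *ID1* (ENSG00000125968), *ID2* (ENSG00000115738), *TCF3* (ENSG00000071564), *TCF4* (ENSG00000196628) and *TCF12* (ENSG00000140262). A binding region belonged to the set when the authors' table gave one of these genes, or the transcription start site (TSS) of one of them, as the closest to it within 1 Mb. By this rule, 38 of the 14865 regions were members, of which 4 lay at *MSC*, 13 at *ID2*, 1 at *ID1*, 5 at *TCF3*, 15 at *TCF4* and 0 at *TCF12*. The set was selected on the RelA fold enrichment, because the region with the highest RelA enrichment of the whole table lies at *MSC*. The RelA values at *MSC* are therefore given as a description and support no statement.

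L1236 is an established line of Hodgkin/Reed-Sternberg cells, grown here without a treatment. Chromatin was precipitated for each of the subunits p50, p52, RelA and RelB, with 2 replicates of every precipitation and 6 libraries of input DNA. The p52 replicates used different antibodies, a mouse monoclonal and a rabbit polyclonal. Each region carries values of the merged replicates, and the only values kept per replicate are signal values in called regions. All libraries come from this line, and binding data hold no marker by which the labelled cell type could be checked.

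E proteins are basic helix-loop-helix transcription factors that bind E box motifs as dimers and drive B lymphocyte development. ID proteins have the helix-loop-helix but lack the basic region, so that they take up E proteins into dimers that do not bind DNA. MSC, also named ABF-1, is a basic helix-loop-helix repressor of activated B cells that dimerizes with E proteins. In Hodgkin lymphoma cells, ABF-1 and ID2 are known as antagonists of the E protein E2A, the product of *TCF3*. NF-κB dimers bind κB motifs, where p50 and p52 contribute DNA binding and RelA and RelB carry transactivation domains.

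The sequences around the start sites are shown first, since *ID2* and *TCF3* each had a binding region over the TSS, whereas *TCF12* had no region. They are RefSeq promoters of GRCh38.p14, from 250 bases before to 50 bases after the start, 5′ to 3′ on the strand of the gene, with matches of the 10-base κB consensus on either strand in capitals. The *ID2* promoter is chr2:8681806-8682105 on the plus strand, the *TCF3* promoter is chr19:1652566-1652865 on the minus strand and the *TCF12* promoter shown is chr15:56918837-56919136 on the plus strand. The binding regions are in hg18 coordinates and were not placed on this build.
ID2 promoter: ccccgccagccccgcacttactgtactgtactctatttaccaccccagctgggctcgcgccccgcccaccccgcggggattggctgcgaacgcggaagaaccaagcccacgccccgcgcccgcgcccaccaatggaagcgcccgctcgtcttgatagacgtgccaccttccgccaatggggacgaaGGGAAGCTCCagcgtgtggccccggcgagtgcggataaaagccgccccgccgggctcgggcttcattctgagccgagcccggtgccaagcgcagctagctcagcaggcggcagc
TCF3 promoter: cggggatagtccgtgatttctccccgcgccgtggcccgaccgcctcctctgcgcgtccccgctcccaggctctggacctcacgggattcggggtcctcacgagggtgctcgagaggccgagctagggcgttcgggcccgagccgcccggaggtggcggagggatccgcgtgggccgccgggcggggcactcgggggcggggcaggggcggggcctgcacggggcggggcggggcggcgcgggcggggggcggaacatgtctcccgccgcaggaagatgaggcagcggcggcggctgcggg
TCF12 promoter: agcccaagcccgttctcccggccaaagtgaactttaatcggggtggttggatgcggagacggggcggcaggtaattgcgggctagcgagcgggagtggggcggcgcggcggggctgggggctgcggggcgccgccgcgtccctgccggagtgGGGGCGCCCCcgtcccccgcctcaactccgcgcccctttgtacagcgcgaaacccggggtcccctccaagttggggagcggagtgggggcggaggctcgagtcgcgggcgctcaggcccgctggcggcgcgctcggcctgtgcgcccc

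The *ID2* promoter held 1 κB match, GGGAAGCTCC, at bases -64 to -55 counted from the start site, and the *TCF12* promoter held GGGGCGCCCC at bases -98 to -89. The *TCF3* promoter shown had 0 matches. Of the other promoters in the RefSeq table, 0 of 1 for *ID1*, 2 of 10 for *TCF4* and, with the promoter shown, 1 of 5 for *TCF12* held a match, beside 11.3% of all 35116 promoters of this length. The E box CANNTG, searched on both strands, was in the *ID2* promoter, in 0 of 1 for *ID1* and for *TCF3*, in 7 of 10 for *TCF4* and in 2 of 5 for *TCF12*, beside 68.7% of all promoters. No κB match overlapped an E box in these promoters of *ID1*, *ID2*, *TCF3*, *TCF4* and *TCF12*, and no promoter of *MSC* was examined. *TCF12* thus has a κB match in a promoter and no region of any subunit in the table. A match describes letters in a window and is not a binding site.

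Regions lay at 5 of the 6 genes, beside 8450 genes with a region in the whole table. Every region carries a call and *MSC* was chosen for one, so that this count is not a result about the genes. The share of all genes with a region was not computed. Among the members, p52 was called in 14 of the 15 regions of *TCF4*. All of p50, p52 and RelB were called in 4 of the 5 of *TCF3*, and RelA at *MSC* and *ID2*. A subunit counts as called where the authors listed a peak of it, that is where the irreproducible discovery rate (IDR) between replicates and the false discovery rate (FDR) against input DNA passed their thresholds. Of the 38 member regions, p50 was called in 27, beside 73.8% of all regions. p52 was called in 30, beside 73.3% of all regions. RelA was called in 4, beside 3.31%, and RelB was called in 16, beside 26.8%. The members thus carried p50 and p52 at shares near those of the table, which is not a result about these genes. The 4 RelA calls lay at the inhibitors, 2 at *MSC* and 2 at *ID2*, and 0 of the 20 regions of the E proteins had RelA. This split is a description, since *MSC* was chosen for RelA and RelA calls are rare in the table. RelB was called in 9 of the 18 regions of the inhibitors and in 7 of the 20 regions of the E proteins. The members are few, several lie close together at the same gene, and no test was made over them.

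**Figure D1:**
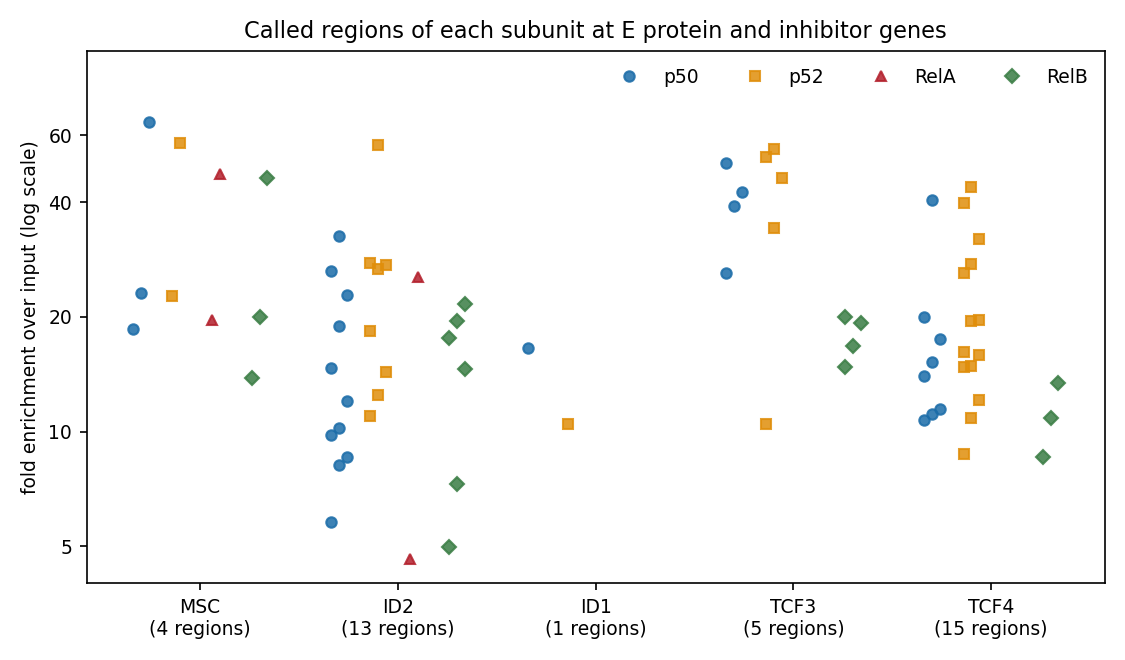
Fold enrichment over input DNA (log axis) of each called member region, by gene and subunit, where every point is a region of the merged replicates and uncalled subunits are not drawn. RelA points appear at *MSC* and *ID2* only, with 47.4 as the highest, and *TCF4* shows 14 p52 points and 8 p50 points.

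Combinations of subunits were counted next. The combination of p50, p52 and RelB without RelA was the most frequent among the members with 10 regions, 4 at *TCF3*, 3 at *TCF4* and 3 at *ID2*, and held 17.1% of all regions. p52 alone was called in 9 members, 7 of them at *TCF4*, beside 19.8% of all regions. p50 alone was called in 7, 5 of them at *ID2*, beside 21.2% of all regions. All 4 subunits were called in 4 members, beside 2.35% of all regions, and every RelA call of the members was of this kind, beside 70.9% of the 492 RelA regions of the table. RelB was called together with p52 in 15 of its 16 regions, beside 80.3% of the 3984 RelB regions of the table, and the exception was a region downstream of *MSC*.

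*MSC* had the highest RelA fold enrichment of the table, though not the most RelA reads. Its TSS region, chr8:72918261-72919462, overlapped the TSS at position 72919285, which is on the minus strand, and extended into the gene. The fold enrichment at the summit, the base with most overlapping fragments, was 65.01 for p50, 57.1 for p52, 47.4 for RelA and 46.2 for RelB. The reads in the region were 544 for p50, 539 for p52, 489 for RelA and 489 for RelB. RelA made up 23.7% of the reads of the 4 subunits in this region (exact 95% binomial interval 21.9 to 25.6), a value that follows from the choice of the region. Such intervals cover counting error only, since no share could be computed per replicate. The summits lay 655 bp downstream of the TSS for p50, 657 bp for p52, 665 bp for RelA and 652 bp for RelB, so that they fell on nearly the same bases.

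By RelA fold enrichment, the *MSC* TSS region ranked 1 of the 492 RelA regions with 47.4, followed by a region of *ID2* with 25.4. Regions at ENSG00000118260 and at *NFKBIA*, which encodes the NF-κB inhibitor IκBα, shared the next rank with 19.8 each, and another region of *MSC* ranked 5 with 19.6. Both RelA signal values of the *MSC* TSS region, 1978 and 1402, were the highest in the table, at 20.9 and 21.4 times their medians over RelA regions. By pileup, which counts the fragments that overlap the summit, it ranked 7 with 151, and by RelA reads per kb of region it ranked 8 with 407. By RelA reads in the region it ranked 18. The 6 regions above it in pileup had RelA folds between 3.89 and 4.94, and the 7 regions above it in reads per kb had folds between 3.15 and 4.94. By pileup, reads per kb and reads, the *ID2* region with 25.4 ranked 14, 94 and 39. The *MSC* region with 19.6 ranked 77, 105 and 114 by these measures. RelA signal values of the replicates were weakly ordered across the table (Spearman's rho 0.105 over 492 regions that share their input libraries), which limits what ranks further down can tell.

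**Figure D2:**
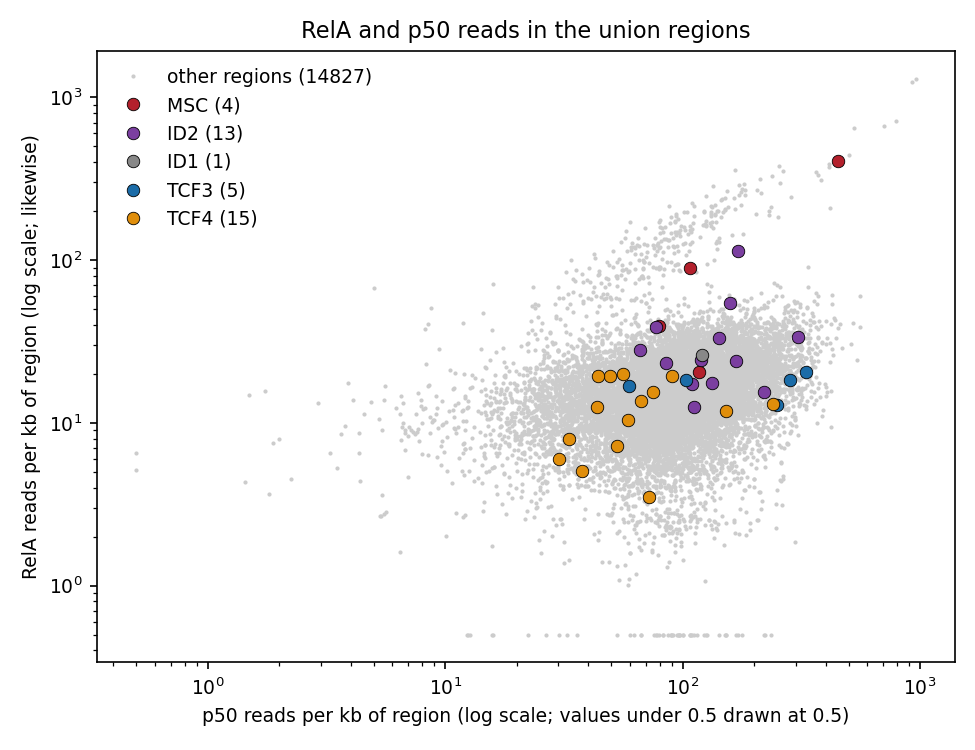
RelA against p50 reads per kb of region (both axes logarithmic) for the 38 members, coloured by gene, and the other 14827 regions in grey. The *MSC* TSS region lies at 453 p50 and 407 RelA reads per kb, and the points of *TCF3* and *TCF4* lie among the grey regions at 3.51 to 20.6 RelA reads per kb.

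The other regions of *MSC* lay downstream of the TSS. The *MSC* gene region, chr8:72916903-72917934, was separated from the TSS region by 326 bp and was called for all 4 subunits, with folds of 23.1 for p50, 22.6 for p52, 19.6 for RelA and 19.98 for RelB. Its reads were 111 for p50, 121 for p52, 92 for RelA and 88 for RelB, and the RelA share was 22.3% (18.4 to 26.7). The folds of p50, p52 and RelB were higher in the TSS region than in this one. For RelA, the choice of the TSS region fixed this order. A region 5127 bp downstream of the TSS was called for RelB only, with a fold of 13.8 and 33 RelB reads beside 32 of p50 and 47 of p52. A region 16886 bp downstream was called for p50 only, with a fold of 18.6 and 74 p50 reads beside 33 of p52, 13 of RelA and 5 of RelB.

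The replicates differed in strength at these *MSC* regions. In the TSS region the p50 signal values were 3627 and 863, those of p52 734 and 2909, and those of RelB 5193 and 2741. In the *MSC* gene region the p50 signal values were 906 and 115 and those of p52 175 and 803. The first p50 signal value was 4.20 times the other in the TSS region and 7.90 times in the *MSC* gene region. Among all 10975 p50 regions, the larger signal value exceeded the smaller by more than 4-fold in 108, or 0.984%. The members among these 108 were the 2 *MSC* regions in the gene and the *ID2* gene region described next. With each value divided by its median over p50 regions, the ratios were 3.62 in the *MSC* TSS region, 6.81 in the *MSC* gene region and 5.52 in the *ID2* gene region, and 93 of the 10975 regions exceeded 4-fold, so that the *MSC* TSS region was no longer among them. By the same measure, the second p52 value was 2.05 times the first in the *MSC* TSS region and 2.38 times in the *MSC* gene region. For RelB, the first value was 3.42 and 2.73 times the other in these regions. In the *MSC* TSS region both p50 values were above their medians, at 9.55 and 2.64 times. They lay on opposite sides in the *MSC* gene region, at 2.39 and 0.350 times, and in the *ID2* gene region, at 3.93 and 0.712 times. Which signal value belongs to which replicate is not given in the sources used here, and for p52 neither is the antibody.

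*ID2*, which encodes an inhibitor without DNA-binding activity of its own, had 13 regions, 3 of them in the gene, 7 upstream, 1 downstream and 2 closest to another gene but to the TSS of *ID2*. The median gene with a region had 1, and 30 of the 8450 genes with a region had more than *ID2*. RelA was called in 2 of the 13. The *ID2* gene region, chr2:8738558-8740808, began 2132 bp downstream of the TSS at position 8736426 of the plus strand and had folds of 26.5 for p50, 27.8 for p52, 25.4 for RelA and 21.7 for RelB. Its reads were 385, 338, 257 and 225 in the same order, and the RelA share was 21.3% (19.1 to 23.8). The 4 summits lay 3486 to 3495 bp downstream of the TSS. Its RelA signal values were 765 and 650, whereas those of p50 were 1491 and 233. Those of RelB were 1805 and 812, and those of p52 342 and 1366. With each value divided by its median, the first RelB value was 4.01 times the other and the second p52 value 2.07 times the first.

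The TSS itself was covered by another region of *ID2*, chr2:8736253-8737175, which was called for p50 only with a fold of 9.79, a summit 518 bp downstream of the TSS and 101 p50 reads. It held 82 p52 reads, 16 RelA reads and 21 RelB reads. Whether the RefSeq start site of the promoter printed above lies in this region was not examined, since the builds differ. A region 483 bp further, in the gene, had p50 at a fold of 10.2 and p52 at 14.3. The 3 neighbouring regions in the gene thus differed in their subunits, and RelA and RelB were called in the one farthest from the TSS.

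Upstream of *ID2*, p52 and RelB were called far from the TSS. The region with most p52 of *ID2*, chr2:8600326-8602095, lay 134331 bp upstream and had folds of 32.7 for p50, 56.6 for p52 and 14.6 for RelB, with 544, 1005 and 159 reads. RelA was not called there, and its 60 reads were 33.9 per kb. Regions 162644 bp and 190029 bp upstream carried the same 3 subunits, with p52 folds of 26.8 and 27.4 and RelB folds of 4.97 and 17.6. A region 269143 bp upstream had p52 and RelB with folds of 10.99 and 7.28. Regions 62603, 309950 and 382068 bp upstream and 14451 bp downstream were called for p50 only, with folds of 5.79, 8.57, 8.16 and 22.8. The p50-only regions thus lay both nearer to the TSS and farther from it than these 4 regions with p52 and RelB.

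The most distant members were closest to another gene and were counted only through the TSS of *ID2*. A region 852580 bp upstream, chr2:7882984-7883846, had all 4 subunits, with folds of 12.0 for p50, 18.4 for p52, 4.63 for RelA and 19.5 for RelB. Its RelA rank was 379 of 492 and its RelA share 9.59% (7.13 to 12.6). In the 349 regions of the table called for all 4 subunits, the median RelA share was 7.33% and 106 had a higher share than this region. A higher share than in the *ID2* gene region was found in 26 of them. For the *MSC* gene and TSS regions, whose RelA values are a description, these counts were 24 and 19. A region 830223 bp upstream had p52 only, with a fold of 12.5.

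*ID1*, a paralog of *ID2* of the same mode of action, had 1 region, chr20:29623957-29625366, which lay 31387 bp upstream of its TSS and was closest to another gene. It was called for p50 with a fold of 16.6 and 171 reads and for p52 with a fold of 10.5 and 98 reads. It held 37 RelA and 25 RelB reads, and neither subunit was called. The inhibitors *MSC*, *ID2* and *ID1* thus had 4, 13 and 1 regions, and the 4 RelA calls were 2 in the *MSC* gene, 1 in the *ID2* gene and 1 far upstream of *ID2*.

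**Figure D3:**
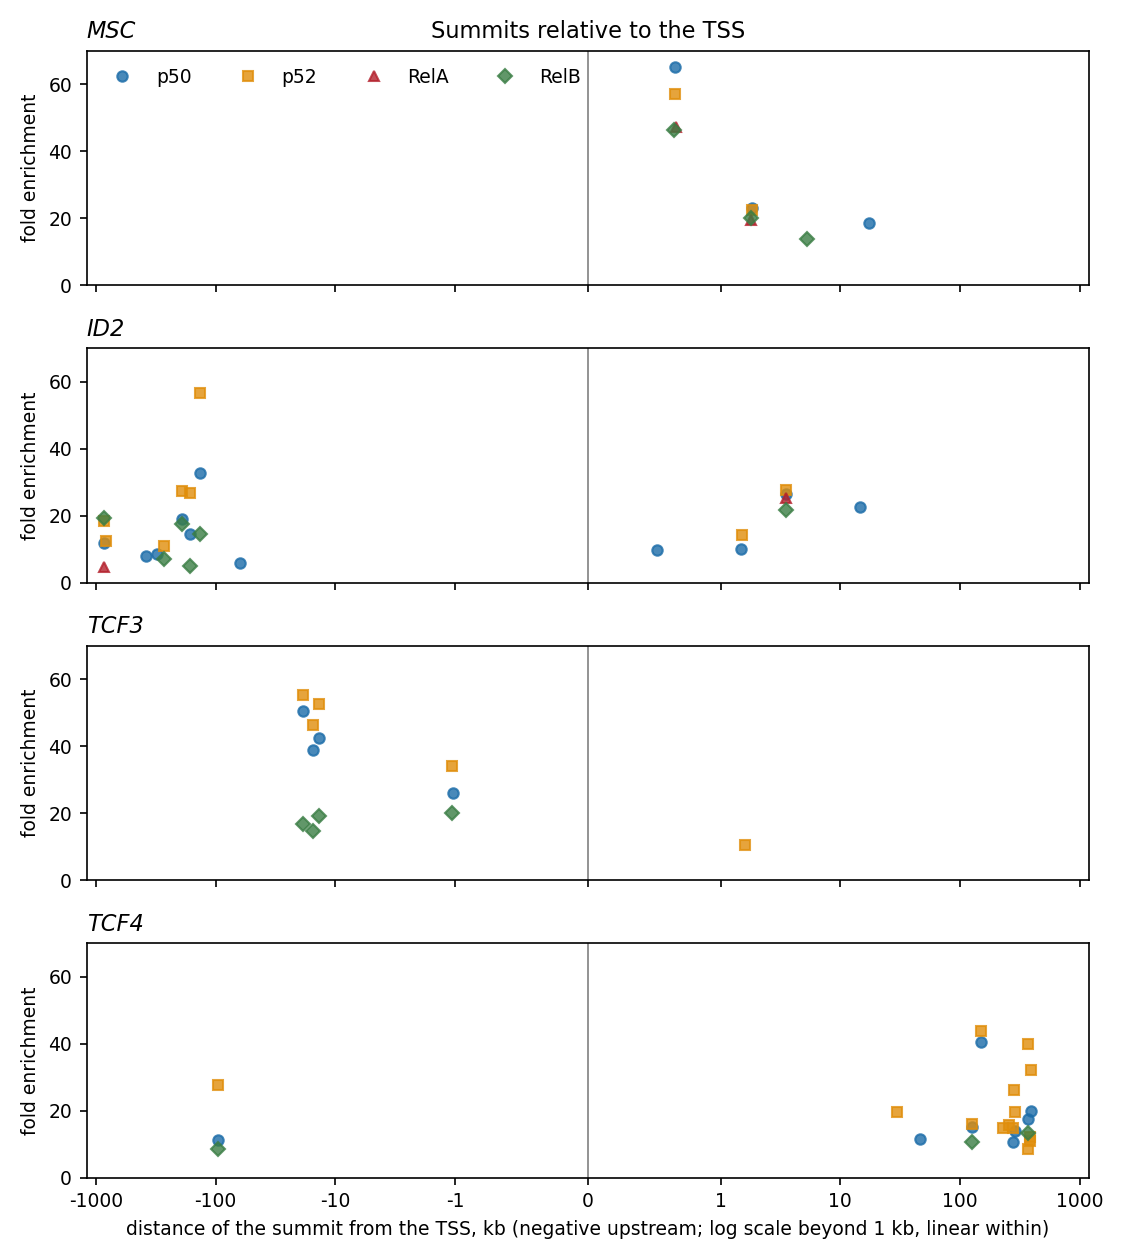
Summits of each subunit by distance from the TSS in kb (logarithmic beyond 1 kb on either side, negative values upstream) against fold enrichment over input DNA, for *MSC*, *ID2*, *TCF3* and *TCF4*. The summits of all 4 subunits coincide at *MSC* near 655 bp and at *ID2* near 3495 bp downstream, and those of *TCF4* lie almost all downstream within the gene.

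*TCF3*, which encodes the E2A proteins E12 and E47, had 5 regions, 2 in the gene and 3 upstream, and 4 of them were called for p50, p52 and RelB. The region over the TSS, chr19:1600929-1604322, had folds of 26.0 for p50, 34.2 for p52 and 20 for RelB, with summits 1045 to 1061 bp upstream of the TSS at position 1601277 of the minus strand. Its reads were 350 for p50, 309 for p52, 62 for RelA and 163 for RelB. The 3 upstream regions formed a cluster with gaps of 911 and 809 bp. The closest to the TSS began 13347 bp upstream and had folds of 42.5 for p50, 52.6 for p52 and 19.3 for RelB. The middle region began 15084 bp upstream and had folds of 39.0, 46.3 and 14.8 in the same order. The farthest began 16768 bp upstream and had folds of 50.6, 55.3 and 16.8. In *TCF3* the cluster upstream thus carried more p50 and p52 enrichment than the region over the TSS, while RelB lay between 14.8 and 20 in all 4. The fifth region, 1386 bp downstream of the TSS, was called for p52 only with a fold of 10.5 and 40 reads.

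RelA was not called at *TCF3*. Its regions held 8 to 62 RelA reads, or 12.9 to 20.6 per kb, while the 14373 regions of the table without a RelA call had a median of 15.3 per kb. RelA made up 3.41% (2.87 to 4.02) of the reads of the 4 subunits at *TCF3*, beside 7.41% over all regions together. By region, it was 2.01% to 2.51% in the 3 upstream regions, 7.01% (5.42 to 8.90) over the TSS and 9.09% (4.01 to 17.1) in the region downstream of it, so that the low share lay in the upstream cluster. Both p50 signal values were above their medians in the 3 upstream regions, at 3.01 to 5.26 times for the first value and 4.13 to 5.39 times for the other. The RelB signal values differed more, at 244 and 1311 in the cluster region closest to the TSS, which were 1.47 and 4.39 times their medians, and at 110 and 1187 in the middle region, which were 0.663 and 3.98 times. The second RelB signal value was the larger in 72.8% of the RelB regions of the table.

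*TCF4*, which encodes the E protein E2-2, had 15 regions, and 21 of the 8450 genes with a region had more. Of these, 14 lay in the gene, with summits up to 389484 bp downstream of its TSS at position 51454183 of the minus strand of chromosome 18, and 1 lay 95549 bp upstream. The TSS of *TCF4* was the closest TSS in 10 of the 15, and the others, all in the gene, were closest to the TSS of another gene. No region overlapped the *TCF4* TSS at 51454183, and the nearest began 29378 bp downstream of it. RefSeq lists 10 promoters of *TCF4*, and whether a region covers another start was not examined, since the builds differ. p52 was called in 14 of the 15, p50 in 8, RelB in 3 and RelA in 0. In 7 regions p52 alone was called, beside 19.8% of all regions, and in 1 p50 alone, beside 21.2%. In the other 7, p52 was called with p50, beside 7643 of all 14865 regions.

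In the 7 regions with p52 but not p50, the p52 folds were 8.74 to 26.1 with a median of 14.9. In these regions p50 had 30.1 to 52.8 reads per kb with a median of 43.6, and p52 had 62.3 to 120 with a median of 91.2. The p50 values were thus near the median of 47.5 reads per kb over the 3890 regions of the table without a p50 call. In the 7 regions with both, p52 folds were 14.8 to 43.9 with a median of 27.6, and p50 had 56.2 to 240.5 reads per kb. The region with the highest fold of both, chr18:51302938-51303781, lay 150402 bp downstream of the TSS. It had folds of 40.7 for p50 and 43.9 for p52, with 203 and 230 reads. Neither RelA with 11 reads nor RelB with 30 was called there. By p52 reads, chr18:51086149-51087432 had more, with 261. The 3 regions with RelB, of which chr18:51086149-51087432 was the strongest, had RelB folds of 13.5, 10.8 and 8.56. The region with p50 alone, 45688 bp downstream of the TSS, had a p50 fold of 11.5 with 48 p50 and 13 p52 reads.

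The p52 replicates used different antibodies, and across the table the second p52 signal value was the larger in 90.9% of the 10893 p52 regions, with medians of 215 and 416. In the members it was the larger in 29 of 30. It exceeded the first more than 4-fold in 7 of these 30, among them regions at *TCF3*, *ID2* and *MSC*. In 4 of the 14 *TCF4* regions it exceeded the first more than 4-fold, with pairs of 77.5 and 563, 168 and 750, 71.7 and 420, and 82.6 and 708, beside 7.84% of all p52 regions with so large a ratio. With each value divided by its median, these ratios were 3.76, 2.31, 3.03 and 4.44, and 0.716% of all p52 regions exceeded 4-fold by this measure. The first of these pairs came from a region also called for p50, and the others from regions called for p52 only. In every *TCF4* region called for p52 only, the first value was below its median, at 0.333 to 0.781 times. The second value lay at 0.266 to 1.80 times its median there. Part of the gap between the p52 values of *TCF4* is thus shared with the table as a whole, and the part of the antibodies was not tested.

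*TCF12*, which encodes the E protein HEB, had no region. None of the 14865 regions had it as the closest gene or its TSS as the closest TSS.

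The balance of p52 and p50 was then compared between the genes. Over all regions together, p52 made up 52.3% of the p50 and p52 reads. At *TCF4* the share was 63.0% (61.1 to 64.9), at *ID2* 59.0% (57.7 to 60.4), at *TCF3* 53.4% (51.7 to 55.1), at *MSC* 49.3% (46.7 to 51.9) and at *ID1* 36.4% (30.7 to 42.5). These intervals cover counting error in pooled reads only, and the regions of a gene differed by more, from 21.3% to 74.9% at *TCF4* and from 24.6% to 73.5% at *ID2*. Without the 2 regions with most p52 reads, the share was 52.9% at *ID2*, 64.2% at *TCF4*, 50.3% at *TCF3* and 43.0% at *MSC*. At *TCF3* it thus fell below the share of all regions. The order of the genes was not tested. By region, the interval lay above the share of all regions in 17 members, 9 at *TCF4*, 6 at *ID2* and 2 at *TCF3*, below it in 7 and across it in 14. The regions below it included the p50-only regions downstream of *MSC* and *ID2* and in *TCF4*. A region called for p52 only entered the table through p52, as 6 of these 9 *TCF4* regions did, and a region called for p50 only through p50, so that their shares are in part fixed by the calls. Over all regions with reads, the interval lay above in 32.3%, below in 36.4% and across in 31.3%. Of the 20 members called for both subunits, p52 had the higher fold in 17, beside 56.8% of the 7643 such regions of the table.

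**Figure D4:**
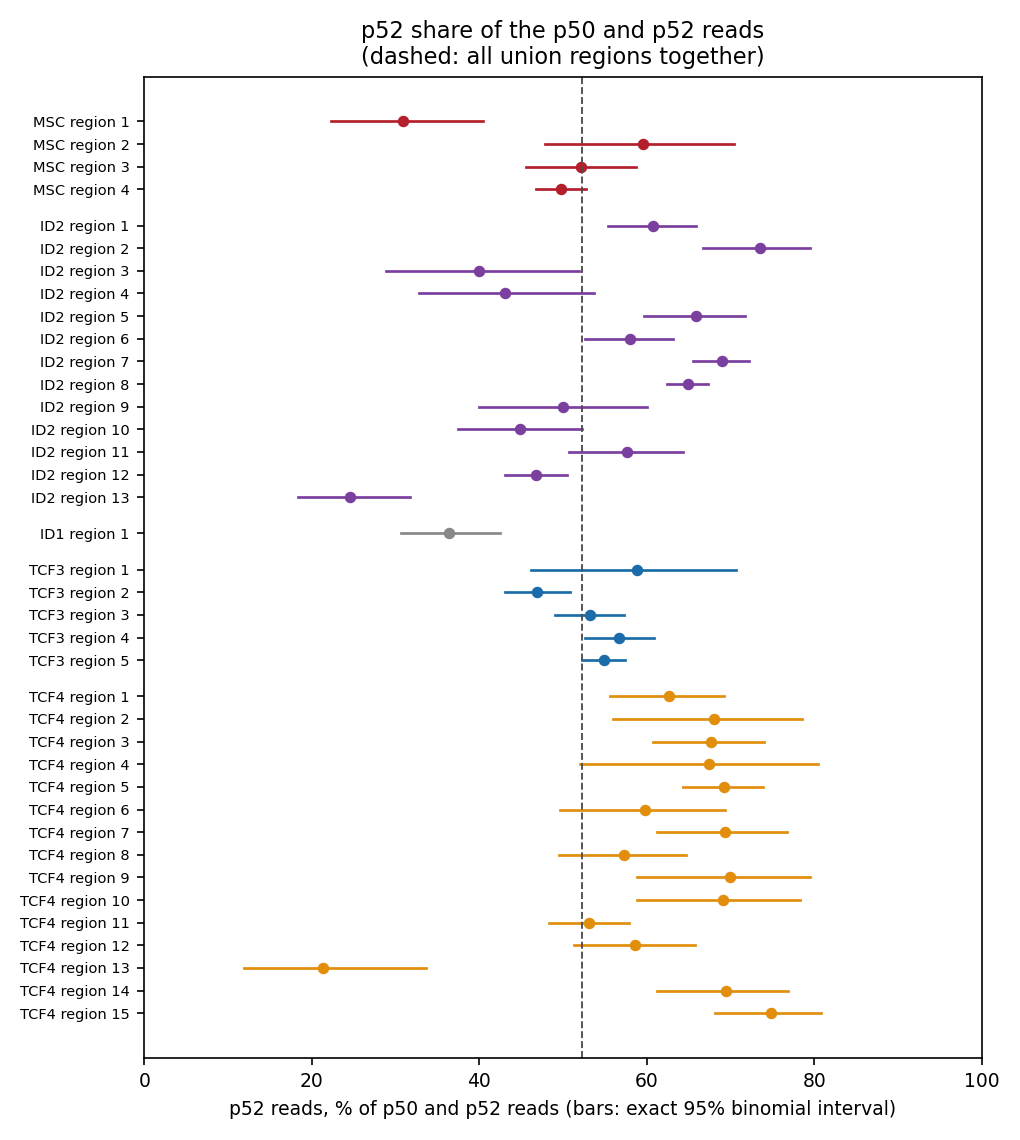
p52 reads as a percentage of the p50 and p52 reads in each of the 38 members, numbered by position within each gene, with exact 95% binomial intervals as bars and 52.3%, the share over all regions together, as the dashed line. The intervals of 9 *TCF4* regions lie above the line, and the *TCF4* region called for p50 alone lies below it at 21.3%.

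As log2 ratios, centred on the median over all regions, p52 to p50 had a median of 0.38 over the 38 members and was above 0 in 27 of them, with 0.96 at *TCF4*, 0.34 at *ID2*, 0.18 at *TCF3*, -0.05 at *MSC* and -0.90 in the region of *ID1*. Over all regions the median is 0 by this centring and 7432 of 14865 lay above it. RelB to p52 had a median of -0.02 over the members, with 1.64 at *MSC*, 0.17 in the region of *ID1*, 0.11 at *TCF3*, -0.28 at *TCF4* and -0.52 at *ID2*. Scaled by the reads in called regions, the median over the members was 0.38, with 2.04 at *MSC*, 0.57 at *ID1*, 0.51 at *TCF3*, 0.12 at *TCF4* and -0.12 at *ID2*. This scaling moves every region alike, so that the order of the 5 genes, with *MSC* highest, could not change under it. The order was not tested. At *MSC*, before this scaling, the ratio was -0.48 in the region called for p50 only and 1.62 to 1.98 in the others. The *MSC* region called for RelB only, with 1.62, entered the table through RelB, so that its value is in part fixed by the call. The sign over the members and at *TCF4* depended on the scaling, and no direction is read from it.

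Where several subunits were called in a member, their summits lay close together. In the 21 members with 2 or more calls, the span of the summits was 1 to 213 bp with a median of 21 bp, and it was within 100 bp in 20. p50 and p52 summits were within 250 bp in 20 of 20 members, with a median distance of 12 bp, beside 95.3% of 7643 regions of the table and a median of 11 bp. RelA summits were within 60 bp of those of each other subunit in the 4 members that had them. The p50 and p52 summits at these genes were thus about as far apart as in the table.

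The strength of the called members relative to the medians of all called regions was compared between the replicates. Both RelA signal values were above their medians in 3 of the 4 RelA members, and the far upstream region of *ID2* had 1.31 and 0.728 times the medians. For RelB, both were above in 10 of 16, both below in 3 and on opposite sides in 3. For p50, both were above in 11 of 27, both below in 11 and on opposite sides in 5, and for p52 these counts were 14, 8 and 8 of 30. The members of p50 and p52 thus fell on both sides of the medians.

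**Figure D5:**
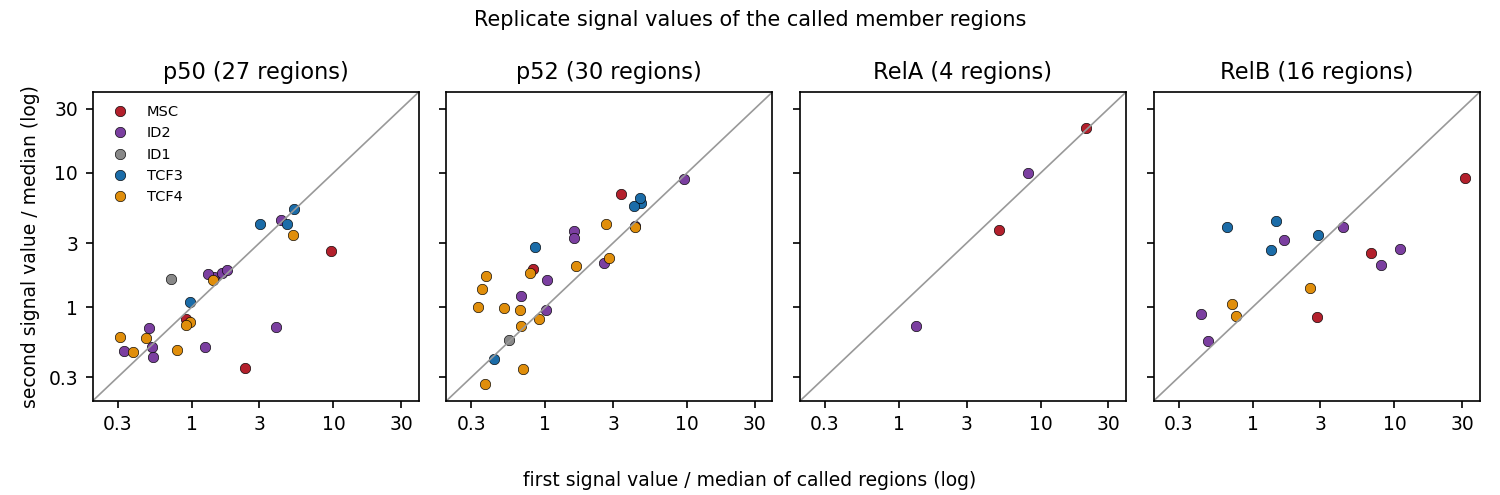
Signal values of the replicates, each divided by its median over all called regions of the subunit (log axes), for called members by gene, with equality as the diagonal line. The *MSC* TSS region is at 20.9 and 21.4 for RelA, while for p50 it lies at 9.55 and 2.64.

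The regions most like the *MSC* TSS region were sought among the 348 other regions called for all 4 subunits, by the Euclidean distance of their log2 fold enrichments. The nearest was at *TNFAIP3*, which encodes the NF-κB feedback inhibitor A20, at a distance of 1.37 and with folds of 53.4 for p50, 58.4 for p52, 18.9 for RelA and 41.0 for RelB. It was followed by ENSG00000118260 at 1.53, *NFKBIA* at 1.59, *BIRC3*, which encodes the inhibitor of apoptosis cIAP2, at 1.73, and ENSG00000100281 at 1.75. All 5 overlapped a TSS, as the *MSC* region did. Their RelA folds were 15.5 to 19.8, where the choice of *MSC* for the highest value fixes that they are lower, and p50 was higher than at *MSC* in 2 and p52 in 4.

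Other genes of the helix-loop-helix family and genes known to be activated by E2A or by EBF1, a B cell factor of another family, were looked up. Names could be matched for 10 of 44 listed genes, and 9 of these had a region, so that no share of the lists is given. *BHLHE40*, a basic helix-loop-helix repressor, had 17 regions, with p50 in 11, p52 in 16, RelB in 8 and RelA in 3, and the highest RelA fold was 10.4. Its paralog *BHLHE41* had 3 regions, *ATOH8* had 4 and *HEY1* had 2, and none of these was called for RelA. *PAX5*, the B cell identity factor, had 8 regions, with p52 in 7, p50 in 6 and RelB in 5 and a highest p52 fold of 50.3. *CXCR4*, a chemokine receptor, had 10 regions, all with p52, and RelA in 1 with a fold of 6.71. *BLNK*, an adaptor of the B cell receptor, had 2 regions with p52, and the kinase gene *BLK* had 1 with p50 and p52.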

How the data were processed

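L1236 chromatin was analysed by ChIP-seq with 2 replicates for each of p50, p52, RelA and RelB and 6 input libraries. Per the labels and the study's methods, the authors aligned the reads to hg18 with Bowtie, removed duplicates, reduced libraries randomly to 10000000 reads and called peaks with MACS against input. The deposited table holds merged counts, whole numbers of reads per region, of which the union regions hold 1654137 for p50, 1810792 for p52, 315151 for RelA and 470788 for RelB. Whether these counts were taken before or after the reduction is not given in the sources used here. Fold enrichment, as deposited, is a ratio of ChIP over input at the summit, and the deposited pileup is a coverage signal there. The IDR, a fraction that the authors computed between replicates, and the FDR, the q-value that the authors took from MACS, have a stated threshold of 0.05, while no call had an IDR above 0.009998. The signal values, which the authors deposited per replicate, are a score of unstated scale. Distances of regions are the authors', from Ensembl version 54, and those of summits were computed from the recovered TSS positions.

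TSS positions were recovered from the signed distances. Shares have exact Clopper-Pearson 95% intervals, log2 ratios use 0.5 added reads, and these steps were checked on simulated data (Python 3.11.15, pandas 2.3.3, scipy 1.17.1). Members and lists were chosen with earlier results of these data known. Named were all 6 genes with the regions at the TSS and those strongest for each subunit, the RelA runners-up, the 5 regions most like that of *MSC*, and listed genes with a region, of which some are not reported here. Other regions of the 6 genes were added to account for every member. Symbols outside the set came from the study's supplementary tables, which matched 10 of 44 listed genes, under 80%, so that the check of the lists is void. Promoters came from RefSeq. Alternatives changed the assignment, thresholds, windows, measures of strength and scaling. Expression data and coverage profiles were not used here.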

Additional observations from a re-analysis of the deposited data

How the results depend on the processing

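The calls rest on tables of merged replicates, so no difference between genes was tested, and the depth of the single libraries cannot be read from the merged counts in regions. With members restricted to 100 kb around the TSS, 18 of the 38 regions were left. With a window of 5 kb in place of 1 kb, 7 in place of 3 regions were near a TSS. The RelA rank of the *MSC* TSS region was 7 by pileup and 8 by reads per kb in place of 1, and stayed 1 by either signal value. The median log2 ratio of RelB to p52 went from -0.02 to 0.38 when scaled by the reads in called regions, a shift that moves every region alike. With 50 or more reads it was 0.082. No direction is read from it. The other alternatives moved no count by more than 1.5 times: assignment by closest gene only left 35 regions and by closest TSS only 33, a fold of at least 5 left 3 RelA and 15 RelB calls, and p52 to p50 stayed between 0.32 and 0.38. No paired analysis was possible because no result comes from a test and the signal values are not tied to replicate numbers. Read counts and folds could not be recomputed without a replicate.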

Other observations

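The p50 signal values of the replicates differed at several regions of *MSC* and *ID2*, which was noticed after the values were seen. Among the 349 regions of the table called for all 4 subunits, the ratio of the first to the other p50 signal value was highest in the *MSC* gene region with 7.90, next in the *ID2* gene region with 6.40, and ranked 5 in the *MSC* TSS region with 4.20. It exceeded 4 in 6 of the 349. With each value divided by its median, these ratios were 6.81, 5.52 and 3.62. The far upstream region of *ID2*, which had a RelA fold of 4.63, ranked 244 with 0.984. Both p50 replicates used the same antibody. The cause was not tested.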
